A study of Homo sapiens with 9 samples.

Results

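The transcription cofactors YAP (YAP1) and TAZ (WWTR1), their DNA-binding partner TEAD1 and 7 genes known as targets of the complex were followed through RNA sequencing of PANC1 cells in which NUSAP1 had been raised or lowered. The 10 genes were taken by name from the 60612 genes of the deposited table. They are ANKRD1, CCN1, CCN2, AXL, AJUBA, AMOTL2 and LATS2 (targets) and YAP1, WWTR1 and TEAD1 (factors). PANC1 is a human pancreatic ductal adenocarcinoma cell line, and the NUSAP1 protein binds spindle microtubules in mitosis. The 9 libraries form 3 groups of 3. PANC1 cells transfected with a plasmid for flag-tagged NUSAP1 are called overexpression here, PANC1 cells transfected with an siRNA against NUSAP1 are called knockdown, and untreated PANC1 cells, whose genotype is labelled WT, are called control. The labels name no empty plasmid and no non-targeting siRNA, so transfection itself and the change in NUSAP1 cannot be told apart in the comparisons with untreated cells. They give neither the time after transfection nor whether replicates were separate cultures, so p-values measure the spread between these libraries, which may be technical.

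YAP and TAZ do not bind DNA on their own. In the Hippo pathway the kinases MST1 and MST2 (genes STK4 and STK3) activate LATS1 and LATS2, which phosphorylate YAP and TAZ and hold them in the cytoplasm. Unphosphorylated YAP and TAZ enter the nucleus and, with TEAD factors, switch on genes for secreted matrix proteins, cytoskeletal regulators and some inhibitors of the pathway itself. In pancreatic ductal cancer YAP is known for its part in tumour growth. Messenger RNA shows neither phosphorylation nor the place of a protein in the cell.

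All 7 targets rose after NUSAP1 overexpression, 1.94-fold for AMOTL2, the smallest, and 118-fold for ANKRD1, the largest, while the messages of YAP1, WWTR1 and TEAD1 did not pass the test. Of all genes tested 53.4% were called in that comparison, 14.5% for knockdown and 50.0% for overexpression against knockdown. After knockdown 5 of the 7 targets (ANKRD1, CCN1, CCN2, AXL and AJUBA) also rose, by smaller amounts, none fell, and WWTR1 fell among the factors. Overexpression and knockdown, set against each other, differed in 9 of the 10 genes, all higher in overexpression.

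Total counts per library lay between 57115172 and 73386227. NUSAP1 itself had an FPKM (a fragment count scaled for gene length and library size) of 12910 to 13792 in overexpression libraries, 11.6 to 13.8 in knockdown libraries and 30.9 to 42.1 in control libraries. It took 5.63% to 6.0% of all counts in overexpression libraries. Of 6 ductal and epithelial markers, KRT8, KRT18, KRT19 and SOX9 reached an FPKM of 1 in all 9 libraries, EPCAM lay between 0.632 and 1.84, and KRT7 stayed below 1. The sum of these 6 was 166 to 194 in overexpression, 151 to 158 in knockdown and 129 to 159.7 in control libraries. The sum of 10 hepatocyte markers was 18.9, 0.628 and 22.4 in overexpression libraries 1, 2 and 3, 0.130 to 0.344 in knockdown libraries, and 0.424, 23.2 and 28.1 in control libraries 1, 2 and 3. Overexpression libraries 1 and 3 and control libraries 2 and 3 thus stand apart. The 3 comparisons below were also fitted without those 4, which leaves 1 overexpression library, 3 knockdown libraries and 1 control library. Summed levels, spreads, orders of level, overlaps of groups, paired differences and correlations were not computed without them. The sum of 6 fibroblast markers was 9.25 to 9.65 in overexpression, 15.2 to 16.3 in knockdown and 20.4 to 22.0 in control libraries. Nearly all of it was COL1A1 and COL3A1. DCN, LUM and PDGFRB were at most 0.304 in any library. The sum of 7 immune and endothelial markers was at most 0.982. The part of these markers in the results was not tested. In bulk RNA, fewer cells of a type and less RNA per cell cannot be told apart.

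The promoters of the targets are shown first, because binding sites of TEAD near the start of a gene are the sequence feature that the 10 genes could share. RefSeq promoter windows (GRCh38.p14, 250 bases before to 50 bases after a start site) were found for 8 of the 10 genes, all but CCN1 and TEAD1, in 12 entries. The core of the TEAD motif was searched as GGAATG on both strands (CATTCC on the printed strand where the match lies on the other). It was present in 7 of the 12 entries, which belong to 7 genes, against 14.0% of 35116 windows of the same length over all genes. Start sites of different kinds are mixed in this count, since the entries of AXL and AJUBA that hold a match start 7532 and 5709 bases downstream of the first base that the deposited table gives for the gene. CCN2 held 3 copies, and 0.128% of all windows held at least 3. ANKRD1 held 2, and 1.37% of all windows held at least 2. A match is a description of letters and no evidence of binding.

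The 250 bases before the start are given for the pair of targets with most copies, printed 5′ to 3′ on the strand of the gene, with each TEAD core in capitals. The ANKRD1 stretch is chr10:90921088-90921337 (minus strand) and the CCN2 stretch is chr6:131951373-131951622 (minus strand).
ANKRD1: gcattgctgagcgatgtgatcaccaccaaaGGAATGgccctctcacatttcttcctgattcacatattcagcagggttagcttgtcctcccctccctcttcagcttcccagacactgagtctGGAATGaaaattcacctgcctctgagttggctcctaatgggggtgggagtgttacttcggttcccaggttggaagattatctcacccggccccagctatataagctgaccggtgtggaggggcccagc
CCN2: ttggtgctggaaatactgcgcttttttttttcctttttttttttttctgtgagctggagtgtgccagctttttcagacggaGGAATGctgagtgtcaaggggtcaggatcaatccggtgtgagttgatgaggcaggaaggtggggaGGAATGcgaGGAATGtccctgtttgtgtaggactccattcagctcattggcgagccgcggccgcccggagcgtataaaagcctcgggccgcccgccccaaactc
Counted from the start site, with -1 the base before it, the ANKRD1 cores begin at -220 and -128. Between them, at -195, the letters tgattca match AP-1 as searched here, TGANTCA with any base at N (found in 7.71% of all windows). In CCN2 the cores begin at -169, -104 and -95, the last pair close together, and a TATA box (TATAAA, found in 11.5% of all windows) begins at -32.

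The other genes with a match held 1 copy each, shown in windows of 30 bases to let the flanking bases be compared. They lie at chr19:41226531-41226560 (plus strand) for AXL, chr14:22976884-22976913 (minus) for AJUBA, chr3:134374499-134374528 (minus) for AMOTL2, chr13:21061560-21061589 (minus) for LATS2 and chr11:102110273-102110302 (plus) for YAP1.
AXL: cagactttgcacCATTCCactccctccgct
AJUBA: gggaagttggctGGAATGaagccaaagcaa
AMOTL2: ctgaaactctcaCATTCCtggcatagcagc
LATS2: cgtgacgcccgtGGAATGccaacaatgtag
YAP1: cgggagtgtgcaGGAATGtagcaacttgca
The core begins at -212 in AXL, -59 in AJUBA, -69 in AMOTL2, -162 in YAP1 and at base 10 after the start in LATS2. Both WWTR1 windows, whose start sites lie 78689 and 33441 bases downstream of the first base in the deposited table, held no match to these letters. Among other YAP target genes, taken up after the 3 comparisons, 4 of 11 windows held the core.

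**Figure D1:**
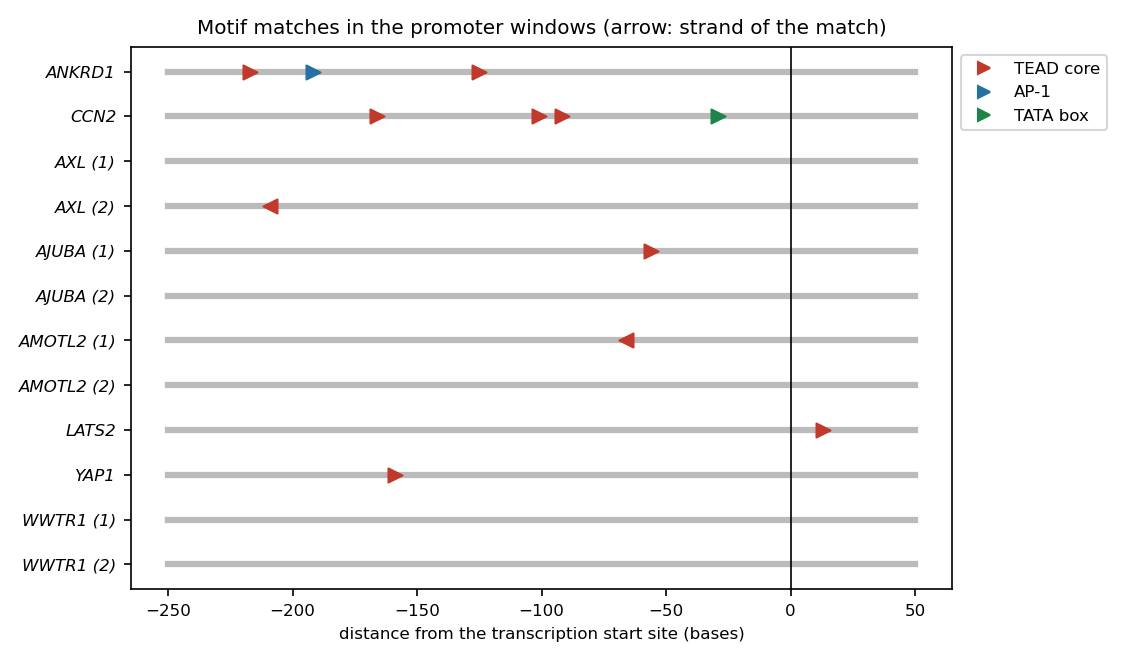
Position of motif matches in the 12 promoter windows of 8 genes, by distance from the start site in bases (x axis), with genes that have more than 1 entry numbered. Arrows give the strand of a match; ANKRD1 shows 2 and CCN2 shows 3 TEAD cores, and both WWTR1 windows show none.

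The first comparison asks how the genes differ between PANC1 cells with the NUSAP1 plasmid and untreated cells. All 7 targets were higher in overexpression, by a median of 1.37 on the log2 scale, and none of the 3 factors was called. Changes this frequent were not limited to them: of 12545 genes tested 53.4% were called in this comparison, 27.4% higher and 26.0% lower, with a median of -0.00. All 10 genes were tested, 7 were called higher and none lower, and their median log2 fold change was 1.10. The FPKM ranges of the groups did not overlap for the same 7, higher in overexpression, which was so for 27.8% of the genes tested. When FPKM was rescaled to TPM the median log2 fold change of all genes was 0.14 in both comparisons with control, and the calls in this one were 3974 higher and 2248 lower instead of 3438 and 3264. Leaving out the 4 libraries that hold hepatocyte transcripts gave 2419 calls, among them 6 of the 7 targets, in a fit with 2 residual degrees of freedom that assumes the lone overexpression and control libraries vary like the knockdown libraries.

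ANKRD1 (ENSG00000148677, chromosome 10, 90912096 to 90921087) encodes a nuclear ankyrin-repeat protein best known from heart and a widely used readout of YAP activity. Its FPKM was 37.5, 38.8 and 38.4 in overexpression libraries 1, 2 and 3, against 0.0726, 0.632 and 0.334 in control libraries 1, 2 and 3. It was close to silent in untreated cells, with 12, 83 and 41 counts, and one of the better expressed of the 10 genes in each overexpression library, with 5042, 5257 and 5211 counts. The log2 fold change was 6.88 ± 0.58 (SE, adjusted p = 2.68e-05), or 118-fold. ANKRD1 passed the filter on low values through the transfected groups only. Control library 1, which is low in hepatocyte transcripts, had the lowest value of its group, and overexpression library 2, which is low in them too, had the highest of its group. The size depends on the fit, and over the alternatives the change ranged from 4.89 to 8.97. It was 7.65 without control library 2 and 8.97 without the 4 libraries with hepatocyte transcripts.

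CCN1 and CCN2, also called CYR61 and CTGF, are secreted proteins of the extracellular matrix and widely used readouts of YAP. CCN1 (ENSG00000142871, chromosome 1, 85580761 to 85583950) had an FPKM of 146, 138 and 169 in overexpression libraries, against 37.4, 37.8 and 39.8 in control libraries. CCN2 (ENSG00000118523, chromosome 6, 131948176 to 131951372) had 48.2, 43.6 and 44.8 in overexpression libraries, against 11.8, 12.5 and 12.6 in control libraries. Both rose about as much, and every overexpression library lay far above every control library. The log2 fold change was 2.05 ± 0.13 (SE) for CCN1 (adjusted p = 7.01e-06), or 4.15-fold, and 1.97 ± 0.08 for CCN2 (adjusted p = 7.93e-07), or 3.91-fold. Both were, without the 4 libraries with hepatocyte transcripts, 1.9, with adjusted p = 0.0247 for CCN1 and 0.0166 for CCN2.

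AXL (ENSG00000167601, chromosome 19, 41219223 to 41261766) is a receptor tyrosine kinase linked to invasion and drug resistance in carcinoma. It had an FPKM of 42.3, 42.0 and 42.4 in overexpression libraries, against 22.5, 22.6 and 23.5 in control libraries, the tightest groups of any of the 10 genes by the ratio of highest to lowest library (1.01 and 1.04). Its log2 fold change was 0.97 ± 0.06 (SE, adjusted p = 4.75e-06), or 1.95-fold.

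The 3 remaining targets encode proteins that act back on the pathway. AJUBA (ENSG00000129474, chromosome 14, 22971177 to 22982551), a LIM-domain scaffold that restrains LATS kinases, had an FPKM of 16.3, 16.7 and 16.4 in overexpression libraries, against 5.96, 6.90 and 7.34 in control libraries. AMOTL2 (ENSG00000114019, chromosome 3, 134355874 to 134374594), an angiomotin-family junction protein that binds and retains YAP, had 17.5, 16.3 and 19.4 in overexpression libraries, against 8.34, 9.70 and 11.0 in control libraries. LATS2 (ENSG00000150457, chromosome 13, 20973036 to 21061586), a kinase that inactivates YAP and TAZ and is itself switched on by them, had 6.27, 7.01 and 6.95 in overexpression libraries, against 2.61, 3.66 and 2.88 in control libraries. None of the 3 genes had overlapping groups. The log2 fold changes were 1.37 ± 0.08 (SE) for AJUBA (adjusted p = 4.77e-06), 0.95 ± 0.13 for AMOTL2 (0.000346) and 1.23 ± 0.13 for LATS2 (8.48e-05). The change of AMOTL2 was 0.98 without the 4 libraries with hepatocyte transcripts and missed the threshold (adjusted p = 0.06), while AXL (0.91, 0.0229), AJUBA (1.50, 0.0169) and LATS2 (1.44, 0.026) still passed.

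**Figure D2:**
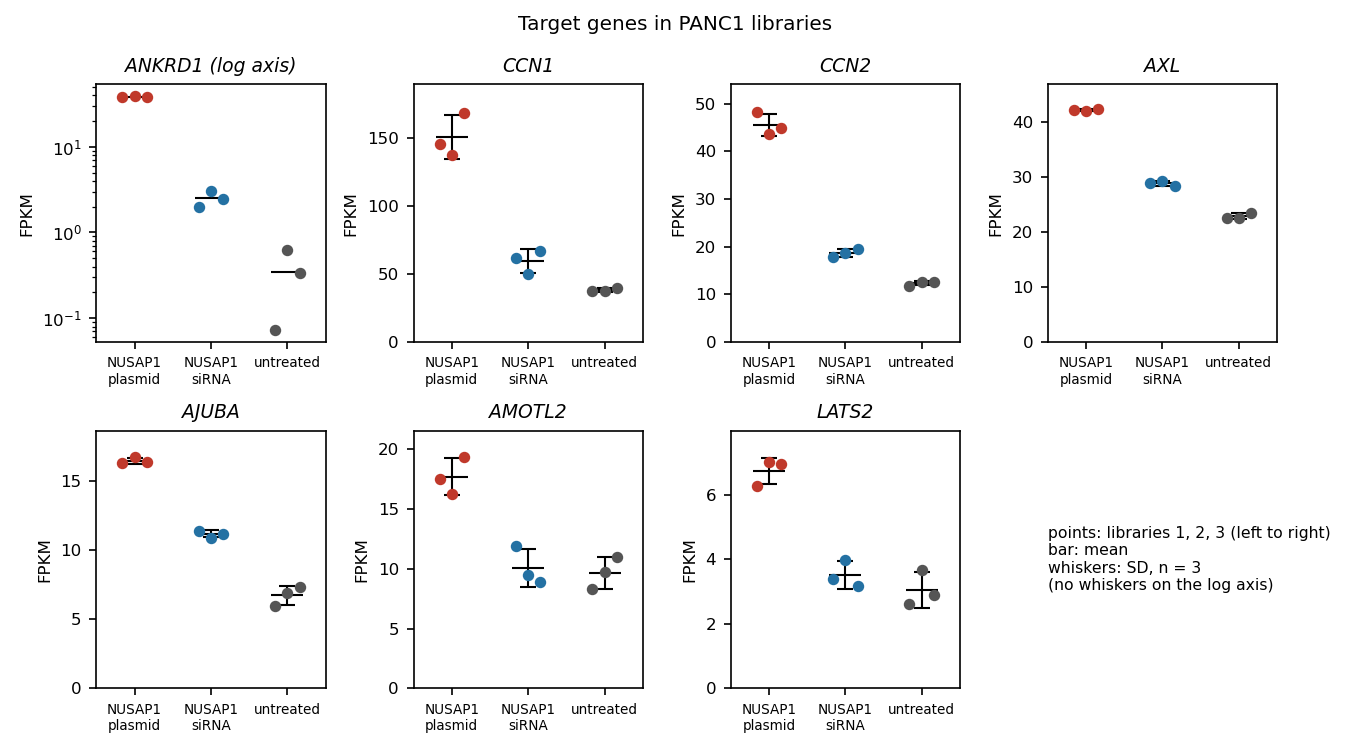
FPKM of the 7 target genes in each library (points), with the group mean (bar) and SD (whiskers, n = 3) for cells with the NUSAP1 plasmid, cells with the NUSAP1 siRNA and untreated cells; ANKRD1 is on a log axis without whiskers. For each gene the plasmid group lies above both other groups, and for ANKRD1, CCN1, CCN2, AXL and AJUBA the siRNA group also lies above untreated cells.

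None of the 3 factors passed the test after overexpression. YAP1 (ENSG00000137693, chromosome 11, 102110447 to 102233424) had an FPKM of 25.8, 23.3 and 21.1 in overexpression libraries, against 18.6, 21.5 and 19.2 in control libraries. The groups overlapped at overexpression library 3 and control library 2, and the log2 fold change was 0.33 ± 0.16 (SE, adjusted p = 0.116). It passed in some other fits of nearly the same size: 0.33 with only these 2 groups in the model (adjusted p = 0.0331), 0.32 with the replicate number as a block as well (0.0435), 0.33 without knockdown library 2 (0.0241) and 0.47 on TPM (0.0274). WWTR1 (ENSG00000018408, chromosome 3, 149517235 to 149736714) had an FPKM of 26.6, 28.9 and 29 in overexpression libraries, against 32.4, 33.6 and 30.3 in control libraries. The WWTR1 groups did not overlap, but the fitted log2 fold change was only -0.11 ± 0.07 (adjusted p = 0.222), and it was 0.05 on TPM. The summed level of YAP1 and WWTR1 averaged 51.6 ± 1.29 FPKM in overexpression and 51.9 ± 2.90 FPKM in control (SD, n = 3 each).

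TEAD1 (ENSG00000187079, chromosome 11, 12674421 to 12944737) varied widely between the replicates of both transfected groups. Its FPKM was 2.39, 4.05 and 7.58 in overexpression libraries, 5.33, 6.92 and 1.64 in knockdown libraries and 5.09, 5.39 and 3.78 in control libraries. The highest overexpression library was 3.18 times the lowest, and in knockdown the ratio was 4.23, against 1.43 in control. Among tested genes that reached an FPKM of 1 in every library of the group, 107 of 11024 (0.971%) were as spread in overexpression, 45 of 11032 (0.408%) in knockdown and 16.9% in control. The change on the log2 scale was 0.05 ± 0.52 (SE) for overexpression against control (adjusted p = 0.942) and -0.07 ± 0.52 for knockdown against control (adjusted p = 0.949), and the sign of both turned under other settings. The counts were 1459 to 6156 per library.

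The other TEAD genes moved in different directions after overexpression. TEAD4 was the most expressed of the 4, with an FPKM of 22.2, 18.4 and 21.8 in overexpression libraries, 22.9, 24.1 and 24.3 in knockdown libraries and 14.0, 15.2 and 14.5 in control libraries. It rose in both transfected groups, by 0.59 ± 0.09 on the log2 scale with the plasmid (SE, adjusted p = 0.000537) and by 0.69 ± 0.09 with the siRNA (0.00184). TEAD2 and TEAD3 fell after overexpression, and their changes after knockdown missed the threshold (adjusted p = 0.707 and 0.254). TEAD2 had an FPKM of 3.31, 3.33 and 2.99 in overexpression libraries, 7.93, 7.14 and 8.82 in knockdown libraries and 4.59, 7.32 and 9.42 in control libraries, a log2 fold change of -1.06 ± 0.23 for overexpression (adjusted p = 0.00472). Its control libraries were the most spread, the highest being 2.05 times the lowest. TEAD3 averaged 3.12 FPKM in overexpression, 5.32 in knockdown and 6.24 in control, a log2 fold change of -0.92 ± 0.13 for overexpression (adjusted p = 0.000489). VGLL4, a cofactor that competes with YAP for TEAD proteins, averaged 10.3 FPKM in overexpression, 15.4 in knockdown and 15.5 in control, and fell in overexpression by 0.51 ± 0.06 on the log2 scale (adjusted p = 0.000197). Of the 7 genes on this list 4 were tested, and 1 rose and 3 fell after overexpression, with a median of -0.72 (53.4% of all genes tested were called). VGLL1, VGLL2 and VGLL3 were at most 0.337 FPKM in any library. Summed over TEAD1 to TEAD4 the level was 31.8 ± 3.64 FPKM in overexpression, 41.7 ± 2.01 in knockdown and 32.7 ± 2.14 in control (SD, n = 3 each), so knockdown libraries, at 39.4 to 43.3, all lay above the others, at 28.4 to 35.6. Without the 4 libraries with hepatocyte transcripts TEAD3 alone of these changes passed for overexpression, and TEAD2 (-0.45, adjusted p = 0.251), TEAD4 (0.124) and VGLL4 (0.0548) did not, nor did TEAD4 for knockdown (0.146).

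**Figure D3:**
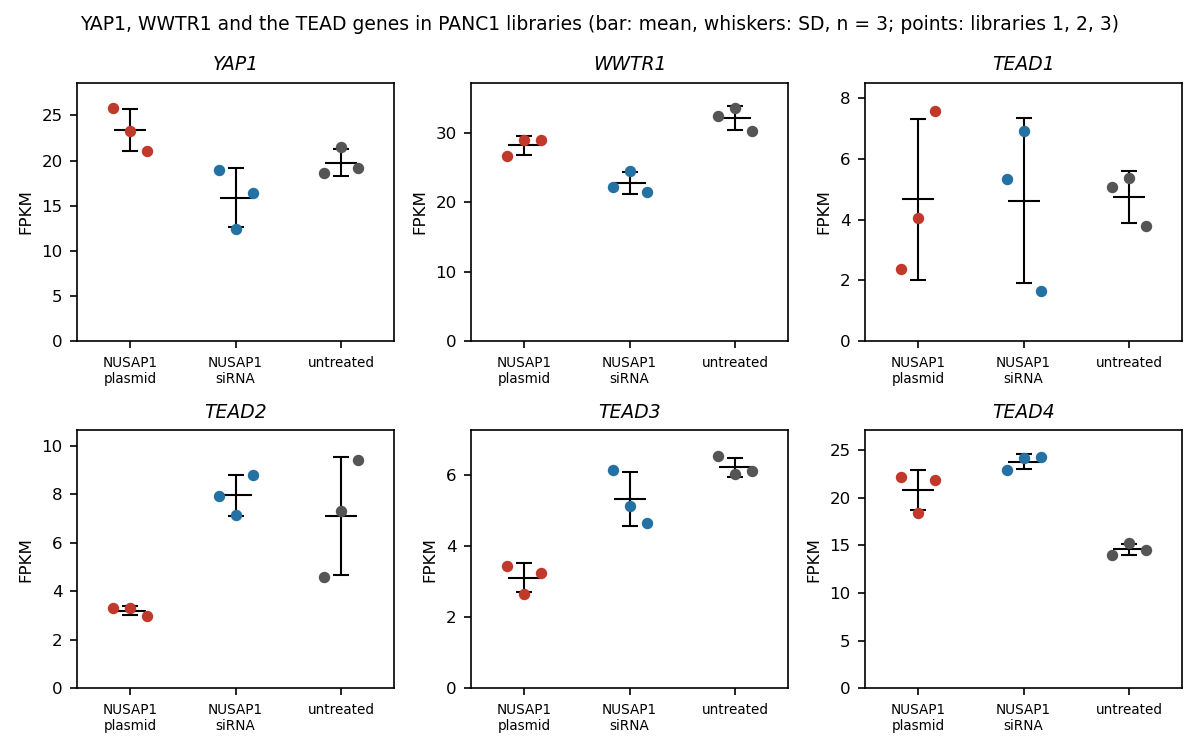
FPKM of YAP1, WWTR1 and TEAD1 to TEAD4 in each library (points), with the group mean (bar) and SD (whiskers, n = 3) for cells with the NUSAP1 plasmid, cells with the NUSAP1 siRNA and untreated cells. TEAD1 runs from 2.39 to 7.58 FPKM within the plasmid group and from 1.64 to 6.92 within the siRNA group, whereas TEAD4 is between 14.0 and 15.2 in untreated cells and 18.4 or more elsewhere.

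The second comparison asks how the same genes differ between cells with the NUSAP1 siRNA and untreated cells. It uses the same 3 control libraries as the first. In knockdown 5 of the 10 genes were called higher and 1 lower, with a median log2 fold change of 0.26, while 14.5% of all genes tested were called, 7.02% higher and 7.43% lower, with a median of 0.02. The 5 that rose were also those whose groups did not overlap with knockdown higher, which was so for 19.3% of all genes tested. On TPM the calls over all genes were 1414 higher and 449 lower instead of 881 and 932, and the same numbers of the 10 genes, 5 and 1, passed. Without the 4 libraries with hepatocyte transcripts 6 genes of the whole table and none of the 10 were called, in the same small fit. The log2 fold changes of the 5 were then 0.29 to 4.94.

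ANKRD1 had an FPKM of 2.0, 3.03 and 2.48 in knockdown libraries, against 0.0726, 0.632 and 0.334 in control libraries. Every knockdown library lay above every control library, yet far below the overexpression libraries. The log2 fold change was 2.85 ± 0.51 (SE, adjusted p = 0.00898), or 7.23-fold, on 245 to 391 counts per knockdown library. It was 3.62 without control library 2 and 4.94 without the 4 libraries with hepatocyte transcripts, and 1.39 at the lowest of the alternatives.

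CCN2 had an FPKM of 17.9, 18.6 and 19.5 in knockdown libraries, against 11.8, 12.5 and 12.6 in control libraries, and rose 1.50-fold (0.58 ± 0.08, SE, adjusted p = 0.0024). CCN1 had 61.9, 50.0 and 67.1 in knockdown libraries, against 37.4, 37.8 and 39.8 in control libraries, a 1.55-fold rise (0.63 ± 0.13, adjusted p = 0.0157). CCN2 was the steadier of the pair. The call of CCN1 was lost when knockdown library 1 (adjusted p = 0.0542), control library 1 (0.0522), control library 2 (0.0538) or control library 3 (0.0521) was left out, at log2 fold changes of 0.60 to 0.63.

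AXL had an FPKM of 28.9, 29.4 and 28.5 in knockdown libraries, against 22.5, 22.6 and 23.5 in control libraries, and rose 1.25-fold (0.33 ± 0.06, SE, adjusted p = 0.00832). AJUBA had 11.4, 10.9 and 11.2 in knockdown libraries, against 5.96, 6.90 and 7.34 in control libraries, and rose 1.64-fold (0.72 ± 0.08, adjusted p = 0.00119). AJUBA thus rose more than CCN1, CCN2 or AXL here in point estimate, whereas after overexpression it rose less than CCN1 and CCN2. CCN1 (0.61, adjusted p = 0.309), CCN2 (0.59, 0.199), AXL (0.29, 0.289) and AJUBA (0.84, 0.12) kept their direction and missed the threshold without the 4 libraries with hepatocyte transcripts.

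AMOTL2 and LATS2, the pathway inhibitors among the targets, were not called after knockdown. AMOTL2 had an FPKM of 11.9, 9.48 and 8.92 in knockdown libraries, against 8.34, 9.70 and 11.0 in control libraries, so the groups lay across each other. Its log2 fold change was 0.05 ± 0.13 (SE, adjusted p = 0.859), and its sign turned without knockdown library 1 (-0.08) or control library 1 (-0.06). LATS2 had 3.39, 3.99 and 3.17 in knockdown libraries, against 2.61, 3.66 and 2.88 in control libraries, with a log2 fold change of 0.19 ± 0.13 (adjusted p = 0.366).

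WWTR1 was the gene of the 10 that fell after knockdown. Its FPKM was 22.2, 24.5 and 21.5 in knockdown libraries, against 32.4, 33.6 and 30.3 in control libraries, with no overlap. The log2 fold change was -0.51 ± 0.07 (SE, adjusted p = 0.00272), 0.701 times the control level. It was -0.58 without the 4 libraries with hepatocyte transcripts (adjusted p = 0.148). YAP1 had an FPKM of 18.9, 12.4 and 16.4 in knockdown libraries, against 18.6, 21.5 and 19.2 in control libraries, and its log2 fold change of -0.32 ± 0.16 did not pass (adjusted p = 0.217). Together YAP1 and WWTR1 averaged 38.7 ± 2.19 FPKM in knockdown and 51.9 ± 2.90 FPKM in control (SD, n = 3 each), and the highest knockdown library (41.1) lay below the lowest control library (49.5). The summed message of the cofactors was lower in the same libraries in which 5 targets were higher.

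The labels do not say that replicate numbers mark shared cultures, and the main fit used no pairing. Same-numbered knockdown and control libraries were taken as pairs here, by the check described with the processing. Within the 3 pairs, the difference of knockdown and control in log2(FPKM + 1) was positive in 3 of 3 for ANKRD1, CCN1, CCN2, AXL, AJUBA and LATS2, in 1 of 3 for AMOTL2 and YAP1, and in none for WWTR1. TEAD1 was positive in 2 of 3. The groups of ANKRD1, CCN1, CCN2, AXL, AJUBA and WWTR1 did not overlap, so any pairing of libraries gives the same counts for them. The smallest of the paired differences of CCN1 was 0.39, in pair 2, and those of CCN2 lay between 0.53 and 0.59.

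**Figure D4:**
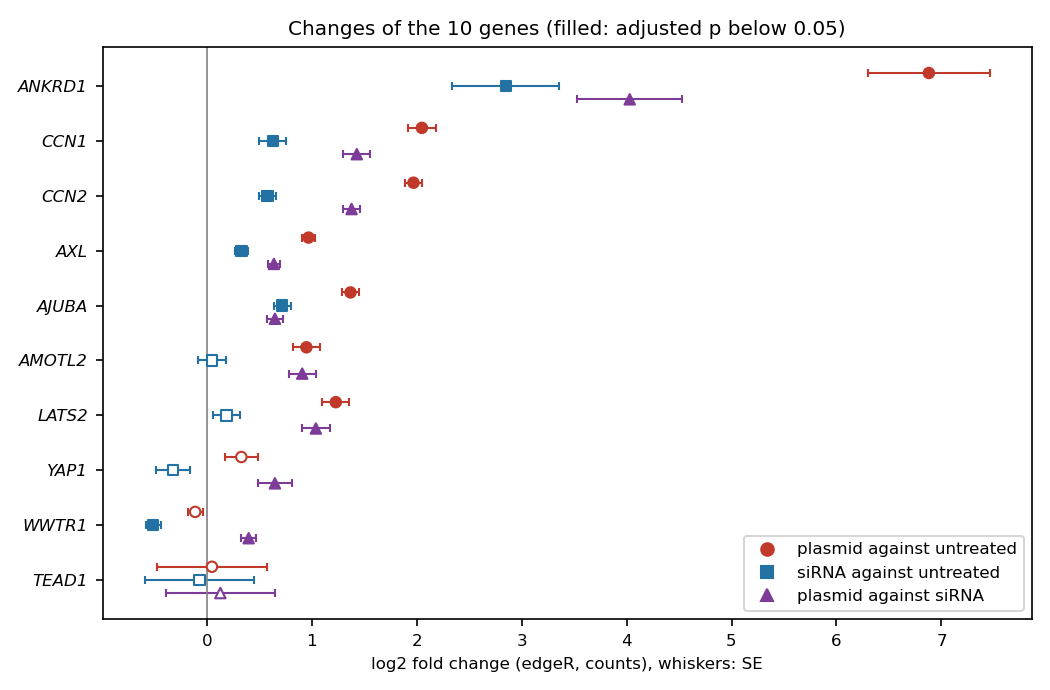
Log2 fold changes of the 10 genes from the counts (x axis), with SE as whiskers, for the 3 comparisons; filled symbols passed at an adjusted p below 0.05. ANKRD1 has the largest change in each comparison, and YAP1, WWTR1 and TEAD1 have open symbols for plasmid against untreated cells.

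The third comparison sets the transfected groups against each other and uses no untreated library as comparator. These groups received a plasmid and an siRNA, so what was transfected and the change in NUSAP1 cannot be told apart here either. All genes but TEAD1 were called, each higher in overexpression, with a median log2 fold change of 0.78, while 50.0% of all genes tested were called, 25.5% higher and 24.5% lower, with a median of -0.01. ANKRD1 differed 16.3-fold (4.03 ± 0.50, SE, adjusted p = 0.000237). CCN1 differed 2.69-fold (1.43 ± 0.13, adjusted p = 5.12e-05) and CCN2 2.61-fold (1.38 ± 0.08, adjusted p = 4.84e-06). LATS2 differed 2.05-fold and AMOTL2 1.88-fold, more than AJUBA at 1.57-fold and AXL at 1.56-fold, so the order of the targets changed with the comparison. For YAP1 and WWTR1 the difference passed, with 0.65 ± 0.16 (adjusted p = 0.00894) for YAP1 and 0.40 ± 0.07 (0.00149) for WWTR1. Each overexpression library had more of both than any knockdown library, the closest values being 21.1 and 18.9 FPKM for YAP1 and 26.6 and 24.5 FPKM for WWTR1. How often such a separation held over all genes tested was not counted for this comparison. All 7 targets still passed without the 4 libraries with hepatocyte transcripts, and YAP1 (0.63, adjusted p = 0.143) and WWTR1 (0.43, 0.0508) did not.

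The order of the levels within a group, in FPKM, shows how far the targets moved past the factors. In overexpression the order was CCN1 (mean 151), CCN2 (45.6), AXL (42.2), ANKRD1 (38.2), WWTR1 (28.2), YAP1 (23.4), AMOTL2 (17.7), AJUBA (16.5), LATS2 (6.75) and TEAD1 (4.67). Neighbours overlapped there for AMOTL2 with AJUBA and for LATS2 with TEAD1. In knockdown it was CCN1 (59.6), AXL (28.9), WWTR1 (22.7), CCN2 (18.6), YAP1 (15.9), AJUBA (11.2), AMOTL2 (10.1), TEAD1 (4.63), LATS2 (3.52) and ANKRD1 (2.5), with overlaps of CCN2 with YAP1, AJUBA with AMOTL2 and TEAD1 with LATS2. In control it was CCN1 (38.3), WWTR1 (32.1), AXL (22.9), YAP1 (19.8), CCN2 (12.3), AMOTL2 (9.69), AJUBA (6.74), TEAD1 (4.75), LATS2 (3.05) and ANKRD1 (0.346), with no neighbours overlapping. ANKRD1 was the lowest of the 10 in control and knockdown and stood behind only CCN1, CCN2 and AXL in overexpression, and CCN1 was the highest in each group.

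Other genes of a YAP target signature, known as targets in cell lines, mostly rose after overexpression as well. The list was chosen with earlier results of these data known, so its counts are a description and no independent support. Of 16 such genes 14 were tested, and 11 rose and 1 fell after overexpression, with a median log2 fold change of 0.93, while 27.4% of all genes tested were called higher and 26.0% lower. F3 and IGFBP3 reached an FPKM of 1 in the overexpression libraries only, so they were tested because they are high there. GADD45A, a stress-induced growth arrest gene, averaged 180.3 FPKM in overexpression, 12.5 in knockdown and 7.66 in control, and rose 24.9-fold after overexpression (4.64 ± 0.15, SE, adjusted p = 2.43e-07). NT5E, an ectonucleotidase that makes adenosine, averaged 39.3 FPKM in overexpression, 20.5 in knockdown and 14.6 in control (1.51 ± 0.07 after overexpression, adjusted p = 1.79e-06). NUAK2, a kinase of the AMPK family, averaged 8.26 FPKM in overexpression, 2.88 in knockdown and 2.08 in control (2.07 ± 0.13 after overexpression, adjusted p = 6.53e-06). IGFBP3, a secreted binding protein of insulin-like growth factors, averaged 1.89 FPKM in overexpression, 0.322 in knockdown and 0.343 in control (2.52 ± 0.16 after overexpression, adjusted p = 6.87e-06). The gene that fell was ARHGEF17, a RhoA exchange factor, at -1.01 ± 0.09 (adjusted p = 4.2e-05). In the fit without the 4 libraries with hepatocyte transcripts 7 of the 14 rose and 1 fell.

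FJX1, the human relative of the Drosophila gene four-jointed, had an FPKM of 0.604, 21.5 and 23.6 in overexpression libraries 1, 2 and 3, 13.5 to 15.3 in knockdown libraries and 10.2 to 12.9 in control libraries. Overexpression library 1 alone was far below all others. With it the log2 fold change after overexpression was 0.48 ± 0.88 (SE, adjusted p = 0.678), and without it 1.03 (adjusted p = 0.000323).

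After knockdown 5 of the 14 signature genes rose (DOCK5, GADD45A, NT5E, NUAK2 and TGFB2) and F3, tissue factor, fell by 1.05 ± 0.27 on the log2 scale (adjusted p = 0.034), with a list median of 0.30. Over all genes tested 7.02% rose and 7.43% fell. NT5E rose by 0.47 ± 0.07 (SE, adjusted p = 0.00472) and GADD45A by 0.70 ± 0.13 (adjusted p = 0.0106, and 0.0631 with the replicate block and only these groups). With the block TGFB2 (0.0583, only these groups), F3 (0.0689, only these groups) and NUAK2 (0.0652, all groups) were also lost. Most of the other calls were near the threshold: the number that rose was 2 without knockdown library 1, knockdown library 2, control library 1 or control library 3, and none rose without the 4 libraries with hepatocyte transcripts. F3 was lost without overexpression library 1 (adjusted p = 0.0502) or 3 (0.0539), knockdown library 2 (0.0775) or 3 (0.0673), or control library 1 (0.0811) or 2 (0.0969). After overexpression F3 was 1.76 to 2.19 FPKM, against 0.439 to 0.673 in control libraries, with a log2 fold change of 1.88 ± 0.26 (adjusted p = 0.000434).

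Among the kinases and scaffolds that feed into LATS, calls went both ways after overexpression. Of 14 tested, 7 rose (LATS1, MAP4K4, NF2, SAV1, TAOK2, WWC1 and WWC2) and 2 fell (MOB1A and TAOK3), with a median of 0.44. Over all genes tested 53.4% were called, 27.4% higher and 26.0% lower, with a median of -0.00. The share of this list called in either direction is near that background, and more of its calls were higher than lower. LATS1, the partner kinase of LATS2, averaged 7.36 FPKM in overexpression, 4.38 in knockdown and 3.19 in control (1.29 ± 0.23 after overexpression, SE, adjusted p = 0.00153). MAP4K4, which can act on LATS beside MST kinases, rose by 0.52 ± 0.07 (adjusted p = 0.000467), and TAOK2, from the family that activates MST kinases, by 0.39 ± 0.07 (adjusted p = 0.00227). NF2, the scaffold merlin, had an FPKM of 18.3, 33.7 and 19.1 in overexpression libraries, 12, 5.84 and 5.63 in knockdown libraries and 5.61, 11.5 and 6.22 in control libraries, so 1 library of each group stood well above the other two. MOB1A and TAOK3 were no longer called lower without overexpression library 1 (adjusted p = 0.0531 and 0.0527), overexpression library 3 (0.0638 and 0.0695) or control library 2 (0.0673 and 0.0574), and without the 4 libraries with hepatocyte transcripts none of the 14 was called.

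After knockdown WWC2 and WWC3 rose and WWC1 fell, 3 of the 14, with a median of 0.06, where 14.5% of all genes tested were called. WWC1, the scaffold KIBRA, averaged 3.73 FPKM in overexpression, 2.17 in knockdown and 2.82 in control. It rose by 0.48 ± 0.08 after overexpression (SE, adjusted p = 0.00128) and fell by 0.39 ± 0.08 after knockdown (adjusted p = 0.0173, and 0.0516 with the replicate block and only these groups). The knockdown call of WWC1 was lost without control library 3 (adjusted p = 0.051). Those of WWC2 (adjusted p = 0.035) and WWC3 (0.0496, and 0.0605 with the block) were near the threshold, and leaving out any 1 library lost at least 1 of them.

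Junction and polarity regulators were mixed. Of 15 genes listed 14 were found and 11 tested. After overexpression 5 of these rose (DLG5, FRMD6, TJP1 and WTIP among them) and AMOT fell, with a median of 0.22. The share called in either direction is near the 53.4% of all genes tested (27.4% higher and 26.0% lower), and more of these calls were higher than lower. AMOT, a paralogue of AMOTL2 that also binds YAP, had an FPKM of 0.944, 1.14 and 0.992 in overexpression libraries, 1.61, 1.81 and 1.47 in knockdown libraries and 2.49, 2.87 and 2.43 in control libraries. It fell in both, by 1.26 ± 0.12 on the log2 scale with the plasmid (SE, adjusted p = 4.23e-05) and by 0.69 ± 0.12 with the siRNA (0.0069), whereas AMOTL2 rose after overexpression. WTIP, a LIM protein related to AJUBA, rose by 0.65 ± 0.10 (adjusted p = 0.000835) and FRMD6, a FERM-domain scaffold, by 0.75 ± 0.15 (0.00276) after overexpression. After knockdown 3 of the 11 rose (DLG5, PATJ and WTIP) and 3 fell (AMOT, AMOTL1 and LIMD1), while 14.5% of all genes tested were called. With the replicate block and only these groups WTIP (adjusted p = 0.0652) and AMOTL1 (0.0511) were lost. The number that rose was 1 without control library 1, and the number that fell was 1 without knockdown library 1. Leaving out any 1 knockdown or control library, or overexpression library 3, lost at least 2 of these 6 calls. Without the 4 libraries with hepatocyte transcripts AMOT was the gene of this list still called after overexpression.

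Genes of the SRF and MRTF pathway, another actin-sensitive programme whose targets overlap with those of YAP, showed no common direction. Of 14 tested, 5 rose (CNN1, FHL2, MRTFA, SRF and VCL) and 2 fell (ACTG1 and CNN2) after overexpression, with a median of -0.04, and the share called is near the 53.4% of all genes tested. CNN1 reached an FPKM of 1 in the overexpression libraries only, and MYL9 and TAGLN in the knockdown libraries only, so these were tested because they are high there. FHL2, a LIM-domain cofactor, averaged 38.6 FPKM in overexpression, 15.4 in knockdown and 15.1 in control (1.43 ± 0.10 after overexpression, SE, adjusted p = 8.14e-06). SRF rose by 0.90 ± 0.08 (adjusted p = 3.38e-05) and MRTFA, its cofactor, by 0.72 ± 0.09 (0.00018). CNN1, a smooth-muscle calponin, averaged 3.69 FPKM in overexpression, 0.703 in knockdown and 0.293 in control (3.70 ± 0.49 after overexpression, adjusted p = 0.000318). After knockdown 5 rose (CNN2, MRTFA, MYL9, TAGLN and VCL) and ACTG1 fell, with a median of 0.29, where 14.5% of all genes tested were called. The replicate block lost MYL9 (adjusted p = 0.0503, all groups) and TAGLN (0.0734, only these groups). The number that rose was 3 without overexpression library 1 or 3, 2 without knockdown library 2 or 3 or control library 2, and 1 without control library 3. CNN2 was called in opposite directions, with a log2 fold change of -0.56 ± 0.13 in overexpression (adjusted p = 0.00665) and 0.69 ± 0.13 in knockdown (0.0114, and 0.0532 without control library 3). In the fit without the 4 libraries with hepatocyte transcripts MRTFA (0.47, adjusted p = 0.0941) and VCL (0.34, 0.115) were no longer called after overexpression, and none of the 14 was called after knockdown, CNN2 (0.59, 0.171) and ACTG1 (-1.13, 0.119) included.

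**Figure D5:**
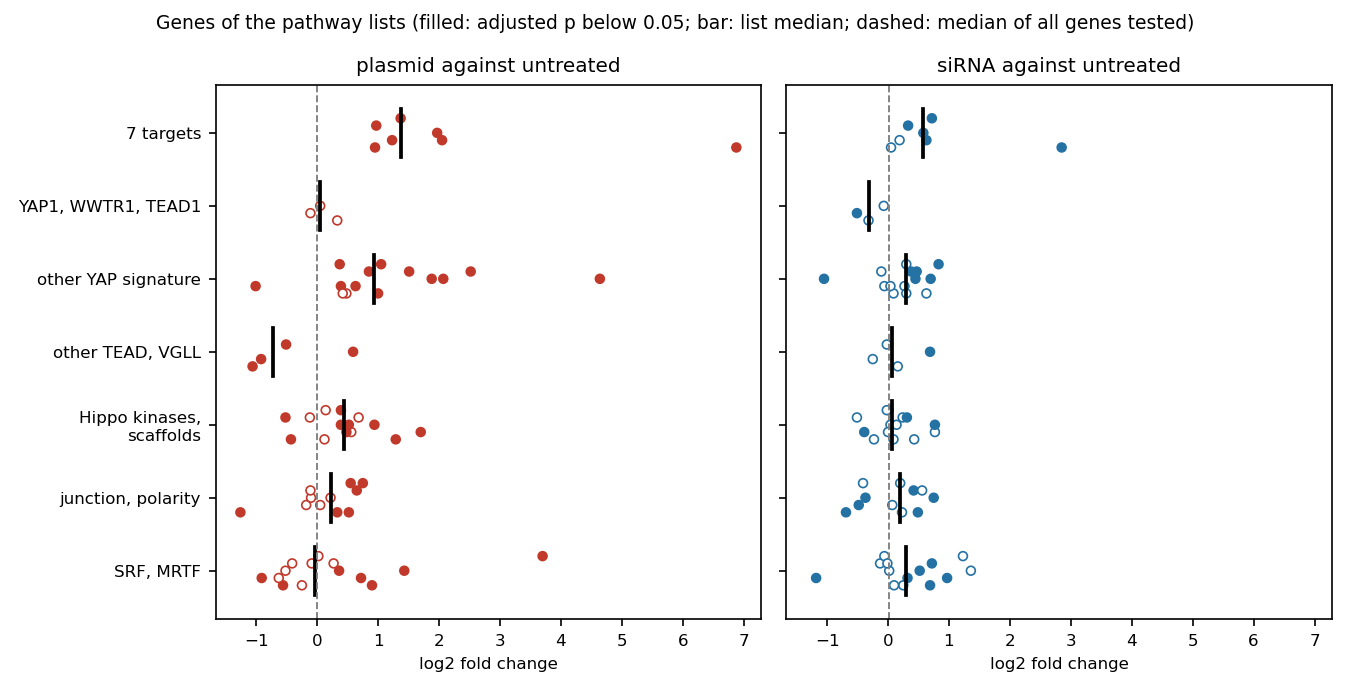
Log2 fold change (x axis) of each tested gene in 7 groups of pathway genes (y axis), for plasmid against untreated cells (left) and siRNA against untreated cells (right); filled points passed at an adjusted p below 0.05, black bars are medians of the group and the dashed line is the median of all genes tested. For plasmid against untreated cells the 7 targets (median 1.37) and the other signature genes (0.93) lie mostly to the right, the other TEAD and VGLL genes (-0.72) mostly to the left.

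The genes whose level followed the main targets most closely over the 9 libraries were taken by Pearson's r of log2(FPKM + 1), as a description. The 9 libraries fall into 3 groups whose means differ, which r includes. For ANKRD1 they were SLC20A1, a phosphate transporter (r = 0.9980), SLC12A4, a potassium-chloride cotransporter (0.9976), and STARD13, a RhoA GTPase-activating protein (0.9971). For CCN1 they were the non-coding RNA ZFAS1 (0.9961), POLR3D, a subunit of RNA polymerase III (0.9959), and DNAJB2, a co-chaperone (0.9956). For CCN2 they were RRP12, a ribosome biogenesis factor (0.9985), TGM2, tissue transglutaminase (0.9982), and the non-coding RNA CYTOR (0.9972). TGM2 averaged 4.45 FPKM in overexpression, 1.62 in knockdown and 0.873 in control.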

How the data were processed

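PANC1 libraries were made from poly(A)-selected RNA with a dUTP protocol, per the labels' protocols. The authors deposited 1 table with a whole-number read count and an FPKM for each of 60612 genes in each of 9 libraries. Trimming, alignment and assembly tools are named as cutadapt 1.9, HISAT2 2.0.4 and StringTie 1.3.4d, per the submitters' processing notes. Not given in the sources used here are the genome build, the settings and whether counting used the strand. The positions of all 10 genes overlap those of GENCODE 29 on GRCh38, and genes overlapping a member held at most 1.13% of its counts (YAP1). An FPKM of 0 is written as 0.0001, and 221 such entries have a count above 0. No sample column was left out.

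Deposited counts were tested with edgeR 4.0.16 (R 4.3.3): TMM factors, quasi-likelihood F tests, 1 model of 3 groups with 6 residual degrees of freedom, common biological coefficient of variation 0.226. Genes that reached an FPKM of 1 in 3 or more libraries were tested (12545), and called at a Benjamini-Hochberg adjusted p below 0.05 over all of them. The SE of a log2 fold change is its size over the square root of F, and is approximate. The fit was tested on simulated data. No pair of libraries of the same group agreed within sampling noise, and pairs across groups were not checked.

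Alternatives were DESeq2 1.42.0 (its size factors, and its own test), library totals, limma 3.58.1 on log2(FPKM + 1) and log2(FPKM + 0.1), no filter or an FPKM of at least 5, only the 2 groups compared, a replicate block, NUSAP1 left out, and each library left out. Leaving out the 4 libraries with hepatocyte transcripts, TPM and the block with only 2 groups were added after the data were seen. Deviations from group means of same-numbered knockdown and control libraries correlated at 0.139, 0.132 and 0.117, each above 0.1, so these numbers were taken as pairs. For overexpression and control they were -0.093, 0.000225 and 0.00168, and for overexpression and knockdown -0.0523, 0.251 and 0.0693, not all above 0.1. Knockdown and control libraries of different numbers correlated at -0.0806 to -0.0468. Deviations within a group cancel out, so positive same-number values force negative values here on average, which adds no evidence of pairing. Overexpression library 1 and knockdown library 3, of different numbers, reached 0.222, so a value above 0.1 does not by itself mark a pair.

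The 10 genes and the other lists were chosen with earlier results of these data known. From each other list up to 4 genes with the smallest adjusted p in either comparison with control are described, besides all TEAD genes and genes of counts of 5 or fewer. FJX1 and NF2 were described for values already seen, as were the genes called in both directions. Promoters come from RefSeq (GRCh38.p14). The values of some listed genes are not reported here singly, though the genes are counted in their list.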

Additional observations from a re-analysis of the deposited data

How the results depend on the processing

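Over all genes, knockdown called 2767 with DESeq2's test and 1058 without a filter, against 1813. With an FPKM of at least 5, 4229 genes were called for overexpression against control and 4069 for overexpression against knockdown, against 6702 and 6270; fewer genes (7115) were tested. Without the 4 libraries with hepatocyte transcripts the counts were 2419 for overexpression, 6 for knockdown and 3539 between them, and 6, 0 and 7 of the 10 genes were called; the fit has fewer samples. Leaving out 1 library gave 5851 to 6792 calls for overexpression, 962 to 1702 for knockdown and 5354 to 6158 between them, with 7 to 8, 5 to 6 and 9 of the 10 genes called. The knockdown count was 962 without knockdown library 1 and 1116, 1174 and 1060 without control libraries 1, 2 and 3.

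With the replicate block knockdown called 2132 genes in all and the same 6 of the 10, overexpression 7068 and 7, and overexpression against knockdown 6643 and 9. With the block and only the 2 groups the counts were 1392, 6496 and 6121 (8 of the 10 for overexpression, with YAP1). No other call of the 10 changed. Among the other pathway genes the block with all groups lost NUAK2 (adjusted p = 0.0652), WWC3 (0.0605) and MYL9 (0.0503) after knockdown and added CRIM1 (0.0178), PTPN14 (0.0132), MOB1A (0.00925), FAT1 (0.0458) and MRTFB (0.0323).

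Among the 10 genes signs turned only for changes that were not called. For TEAD1 overexpression gave -0.11 and -0.16 in the limma fits, -0.09 with the block and 2 groups, -0.47 without overexpression library 3, -0.10 without control library 3 and -0.31 without the 4 libraries. TEAD1 after knockdown gave 0.31 without knockdown library 3 and 0.01 without control library 2. Between overexpression and knockdown it gave -0.39 without overexpression library 3, -0.28 without knockdown library 3 and -0.09 without the 4. AMOTL2 after knockdown gave -0.08 and -0.06, and WWTR1 after overexpression 0.05 on TPM. Over all fits that leave out 1 library TEAD1 ranged between -0.47 and 0.35 for overexpression, -0.46 and 0.31 for knockdown and -0.39 and 0.51 between them, and AMOTL2 between -0.08 and 0.12 for knockdown. The cause was not tested. The lowest counts of the 10 genes were those of ANKRD1 in control, 12 to 83 per library, and the part of depth was not tested.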
